A study of Mus musculus with 8 samples.

Results

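The fetal and wall stress gene program of the mouse heart was followed here through 8 genes. With earlier results of these data known, these 8 were chosen by symbol from the 16994 genes of the count table. They were *Nppa*, *Nppb*, *Acta1*, *Myh6*, *Myh7*, *Ankrd1*, *Xirp2*, and *Mtpn*, and all 8 reached a mean of 1 CPM (counts scaled to library depth), as did 12999 genes in all. RNA from WT mice and from mice with whole-body TIGAR knockout (TKO) was sequenced from the left ventricle (LV) and, after infarction, from infarct, border, and remote zone tissue, with 1 library per genotype and region. The mice were male, and the 3 zones came from hearts in which the left anterior descending coronary artery had been tied permanently at 16 weeks of age to cause myocardial infarction (MI). Each infarct zone library pooled 3 mice, and neither the time from ligation to tissue collection, the number of mice behind the other libraries, nor any operation on the left ventricle donors is given in the sources used here. TIGAR, encoded by *Tigar*, is a p53-induced phosphatase that lowers glycolytic flux, and it was missing from every cell of the TKO mice, so a difference between genotypes cannot be assigned to 1 cell type.

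The ventricle switches off a group of fetal genes around birth and can switch them on again when its wall is stretched or overloaded. *Nppa* and *Nppb* encode the natriuretic peptides ANP and BNP, which are secreted by heart muscle and lower blood volume and pressure. *Myh7* and *Acta1* encode the β-myosin heavy chain and the skeletal α-actin of the fetal mouse ventricle, whereas *Myh6* encodes the faster α-myosin heavy chain of the adult mouse ventricle. *Ankrd1* (CARP) encodes a titin-associated ankyrin-repeat protein that responds to stretch, *Xirp2* an actin-binding protein of intercalated discs and Z-discs, and *Mtpn* myotrophin, a small ankyrin-repeat protein that binds actin capping protein. In mouse ventricle under load, *Nppa*, *Nppb*, *Acta1*, *Myh7*, and *Ankrd1* are known to rise and *Myh6* to fall.

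Sequence shows which of these counts can be read with confidence. *Myh6* (ENSMUSG00000040752) lies on the minus strand of chromosome 14 of GRCm38 from 54941921 to 54966927, and *Myh7* (ENSMUSG00000053093) from 54970684 to 54994626, only 3756 bases away. Their coding sequences are 91.5% identical over 5805 aligned bases, and the longest identical run spans 245 bases. Of the 31-base words of *Myh7* transcripts, 22.5% also occur in *Myh6*, and 29.1% of those of *Myh6* occur in *Myh7*, so reads from these stretches were shared out by the quantification. The antisense RNA gene *Mhrt* holds a further 3.99% of the *Myh6* words and 4.32% of the *Myh7* words. The 60-base coding window in which they differ most is shown as an example of sequence that tells them apart. It runs from coding base 3226 to 3285 of *Myh6* and 3220 to 3279 of *Myh7*, with the 27 differing bases in capitals.
Myh6: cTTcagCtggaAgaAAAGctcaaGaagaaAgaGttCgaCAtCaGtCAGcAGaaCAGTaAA
Myh7: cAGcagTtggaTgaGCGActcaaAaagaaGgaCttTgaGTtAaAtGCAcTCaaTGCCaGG

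The peptide genes are neighbors. *Nppb* (ENSMUSG00000029019) occupies chromosome 4 from 147985788 to 147987205 and *Nppa* (ENSMUSG00000041616) from 148000722 to 148002079, both on the plus strand and 13516 bases apart. No 31-base word of *Nppb* occurs in another annotated gene, but 56.8% of those of *Nppa* occur on the opposite strand in the antisense gene *Gm13054*. Whether the counting used strand is not given in the sources used here, so *Nppa* counts may include antisense reads. *Acta1* (ENSMUSG00000031972) lies on chromosome 8 from 123891769 to 123894751 on the minus strand and shares 4.11% of its words with other genes, mostly actin genes and their copies. *Ankrd1* (ENSMUSG00000024803, chromosome 19, 36111961 to 36120099, minus strand) shared 0.196%, *Xirp2* (ENSMUSG00000027022, chromosome 2, 67446002 to 67526614, plus strand) 1.17%, and *Mtpn* (ENSMUSG00000029840, chromosome 6, 35508906 to 35539888, minus strand) 0.355%.

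Promoter sequence is shown for both natriuretic peptide genes and for *Acta1*, as examples from the classical fetal genes that hold matches to known cardiac motifs. They come from RefSeq on GRCm38.p6 and were searched on both strands for the letters of a GATA factor site (AGATAA or AGATAG, likewise with T as the first base), the M-CAT element bound by TEAD factors (CATTCC), and the CArG box bound by SRF, with matches in capitals. The *Nppa* promoter spans chr4:148000472-148000721 on the plus strand, and its GATA match began 122 bases before the start. The 30-base *Nppb* stretch at chr4:147985792-147985821, plus strand, holds 1 M-CAT and 2 GATA matches, the first of them 105 bases before the RefSeq start, and lies within the longer gene model of GENCODE. The *Acta1* promoter, chr8:123894776-123895025 on the minus strand, holds 1 CArG box and 1 M-CAT element.
Nppa: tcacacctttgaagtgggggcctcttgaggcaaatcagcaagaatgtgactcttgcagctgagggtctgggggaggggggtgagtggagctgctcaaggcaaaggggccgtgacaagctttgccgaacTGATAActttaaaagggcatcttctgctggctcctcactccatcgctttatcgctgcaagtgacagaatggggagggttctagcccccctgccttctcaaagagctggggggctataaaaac
Nppb: gcaGGAATGcagcTGATAAatcagAGATAA
Acta1: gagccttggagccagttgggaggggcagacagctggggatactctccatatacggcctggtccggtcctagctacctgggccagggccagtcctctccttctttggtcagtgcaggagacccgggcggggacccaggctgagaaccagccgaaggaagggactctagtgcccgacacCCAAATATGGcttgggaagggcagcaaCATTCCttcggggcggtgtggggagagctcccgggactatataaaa

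These letters are common in the genome. A GATA match stood in 26.5% of 32851 promoters, an M-CAT match in 12.6%, and a CArG box in 1.47%. Over the 250 bases before the RefSeq start, *Myh6* had 1 M-CAT and 1 GATA match, *Ankrd1* 2 M-CAT and 1 GATA, and *Xirp2* 1 GATA. The *Myh6* and *Ankrd1* windows lie wholly inside the GENCODE gene models, whose starts are further upstream. *Myh7* had 1 M-CAT match before 1 of its RefSeq starts and none before the other, and *Mtpn* had none of the 3. No CArG box was found in the windows of the other 7 genes. A match is a description of the letters and not evidence of binding.

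Estimated counts totaled 27429240 to 33799249 per library, and the floor of 3 counts corresponded to 0.0709 to 0.116 CPM, far below every member. The knockout label was checked on *Tigar*, which had 1066 to 2215 counts in the 4 WT libraries and 51 to 87 in the 4 TKO libraries. Scaling by TMM (edgeR's trimmed mean of M-values) gave factors of 1.54 for the WT and 1.26 for the TKO infarct zone library and 0.866 to 0.956 for the other 6. All levels below are TMM-scaled CPM unless said otherwise. Since no group had a replicate, a ratio of 2 libraries carries only a 95% counting interval and no p-value, and it cannot separate genotype or zone from differences between single libraries. In bulk tissue, fewer cells of a type and less RNA per cell cannot be told apart.

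*Nppa* had the largest fold between its highest and lowest library of the 8 genes, 17.3-fold, from 173 to 2987 CPM. It had 4736 counts in the WT left ventricle (173 CPM), 126364 in the WT infarct zone (2987 CPM), 51584 at the border zone (1674 CPM), and 59713 at the remote zone (1962 CPM). In TKO it had 7244 counts in the left ventricle (280 CPM), 74576 in the infarct zone (2086 CPM), 13881 at the border zone (468 CPM), and 14718 at the remote zone (489 CPM). Both left ventricle libraries were thus the lowest of their genotype, the TKO border and remote zones came next, and every *Nppa* neighbor in the order of 8 levels was separated beyond counting error.

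*Nppb* had 2834 counts in the WT left ventricle (103 CPM), 14029 in the infarct zone (332 CPM), 15855 at the border zone (515 CPM), and 10289 at the remote zone (338 CPM). In TKO the *Nppb* counts were 10300 in the left ventricle (398 CPM), 13552 in the infarct zone (379 CPM), 9239 at the border zone (311 CPM), and 7142 at the remote zone (237 CPM). The WT left ventricle stood lowest of the 8, and in TKO the left ventricle was the highest of the 4 regions. The WT remote and infarct zones could not be told apart (*Nppb* ratio 1.02, interval 0.994 to 1.05).

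**Figure D1:**
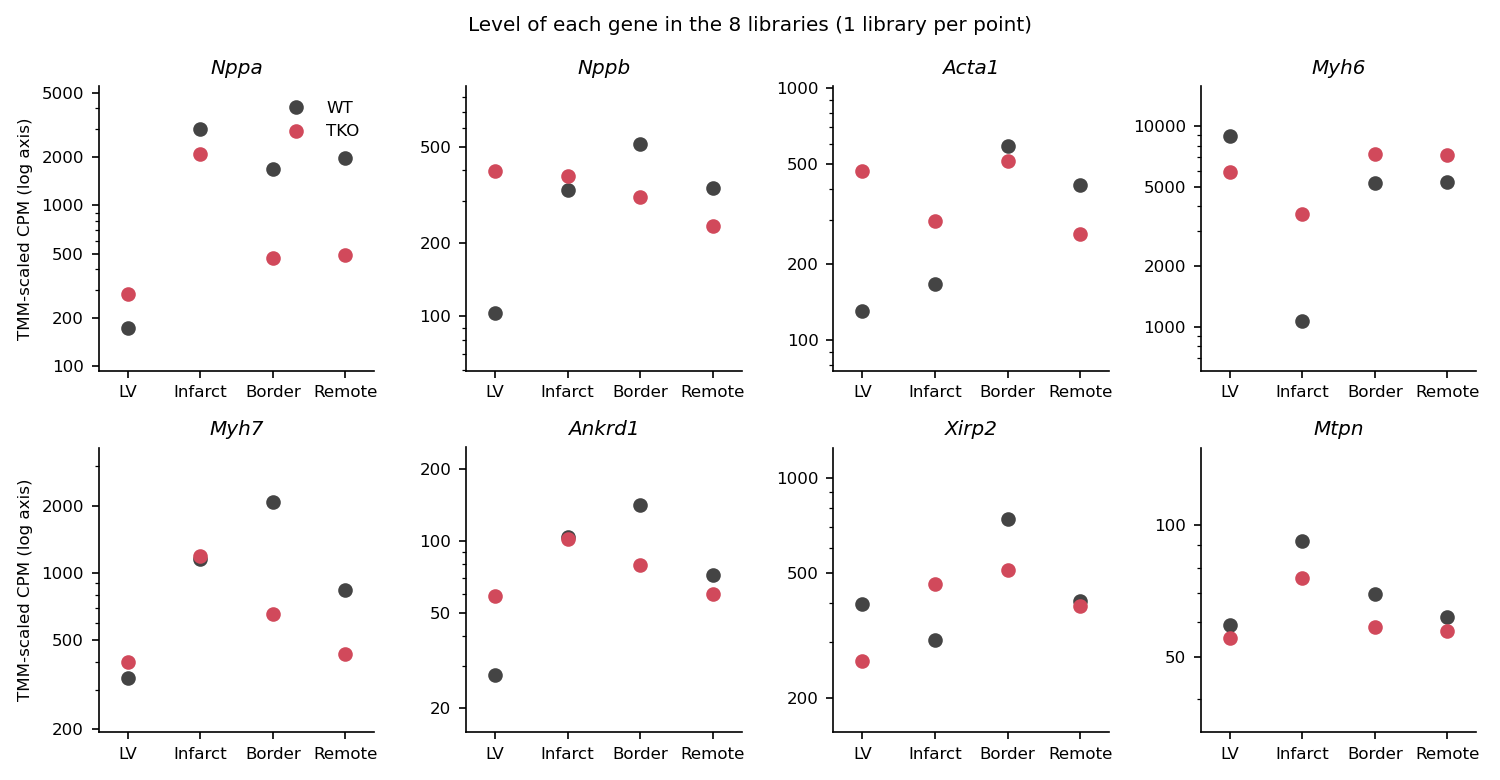
Level of each of the 8 genes in the 8 libraries. The x axis gives the region (LV, left ventricle) and the y axis TMM-scaled CPM on a log axis, with 1 library per point, WT in dark gray and TKO in red. *Nppa*, *Nppb*, *Acta1*, *Myh7*, and *Ankrd1* are lowest in the WT left ventricle, at 173, 103, 131, 340, and 27.5 CPM. *Nppa* is far higher in WT than in TKO in the border and remote zones.

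Among the contractile genes, *Acta1* and *Myh7*, like *Nppa* and *Nppb*, were lowest in the WT left ventricle. *Acta1* had 3577 counts in the WT left ventricle (131 CPM), 7087 in the infarct zone (168 CPM), 18211 at the border zone (591 CPM), and 12593 at the remote zone (414 CPM). In TKO, *Acta1* had 12166 counts in the left ventricle (470 CPM), 10618 in the infarct zone (297 CPM), 15185 at the border zone (512 CPM), and 7961 at the remote zone (264 CPM). The TKO left ventricle therefore lay above the WT remote zone and below both border zones.

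*Myh6*, the adult isoform, had 244473 counts in the WT left ventricle (8921 CPM), 45355 in the infarct zone (1072 CPM), 161279 at the border zone (5234 CPM), and 160486 at the remote zone (5274 CPM). The TKO counts of *Myh6* were 153941 in the left ventricle (5944 CPM), 130620 in the infarct zone (3654 CPM), 215001 at the border zone (7248 CPM), and 215284 at the remote zone (7150 CPM). The highest level was the WT left ventricle and the lowest the WT infarct zone. Its fetal counterpart *Myh7* had 9316 counts in the WT left ventricle (340 CPM), 48863 in the infarct zone (1155 CPM), 64127 at the border zone (2081 CPM), and 25532 at the remote zone (839 CPM). In TKO, *Myh7* had 10336 counts in the left ventricle (399 CPM), 42529 in the infarct zone (1190 CPM), 19571 at the border zone (660 CPM), and 13083 at the remote zone (435 CPM). The WT border zone held the highest *Myh7* level of the 8 libraries, and the left ventricle libraries the lowest.

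Of the stretch and Z-disc genes, *Ankrd1* had 755 counts in the WT left ventricle (27.5 CPM), 4400 in the infarct zone (104 CPM), 4361 at the border zone (142 CPM), and 2202 at the remote zone (72.4 CPM). In TKO, *Ankrd1* had 1527 counts in the left ventricle (59.0 CPM), 3636 in the infarct zone (102 CPM), 2353 at the border zone (79.3 CPM), and 1805 at the remote zone (59.9 CPM). The *Ankrd1* levels of the infarct zones of the genotypes, and those of the TKO remote zone and left ventricle, could not be told apart by counting error. *Xirp2* ranged from 261 CPM in the TKO left ventricle (6771 counts) to 741 CPM in the WT border zone (22821 counts), with 398, 304, and 406 CPM in the WT left ventricle, infarct zone, and remote zone and 461, 511, and 391 CPM in the 3 TKO zones. *Mtpn* moved least, from 55.1 CPM in the TKO left ventricle (1427 counts) to 91.9 CPM in the WT infarct zone (3888 counts), and its 5 lowest libraries were each within counting error of their neighbor.

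Levels can be compared between genes only per length. In the WT left ventricle, *Myh6* had 1459 CPM per kilobase of transcript, *Nppa* 200, *Nppb* 132, *Acta1* 90.3, *Myh7* 54.6, *Xirp2* 33.3, *Mtpn* 14.96, and *Ankrd1* 13.6. In the WT infarct zone *Nppa* led with 3453 CPM per kilobase and *Myh6* had 175, less than the 185 of *Myh7*. In the TKO infarct zone *Nppa* also led, with 2412 CPM per kilobase, but *Myh6* had 598 against 191 for *Myh7*.

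The knockout left ventricle set the baseline of every later comparison within TKO. There, 3 of the 8 genes exceeded WT by 2-fold or more and none was 2-fold lower. Of all 12999 genes, 254 were at least 2-fold higher there and 457 at least 2-fold lower, 5.47% either way. *Nppb* was 3.85-fold higher (95% counting interval 3.69 to 4.01), *Acta1* 3.599-fold (3.47 to 3.74), and *Ankrd1* 2.14-fold (1.96 to 2.34). By size of the ratio, *Nppb* ranked 68, *Acta1* 75, and *Ankrd1* 207 among the 12999 genes, counted from the highest. *Nppa* was 1.62-fold higher (1.56 to 1.68) and *Myh7* 1.17-fold higher (1.14 to 1.21). *Myh6* was lower in TKO at a ratio of 0.666 (0.662 to 0.671), *Xirp2* at 0.656 (0.637 to 0.676), and *Mtpn* at 0.930 (0.866 to 0.9996). The directions in the left ventricle were the same under the 6 scalings tried.

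In the border and remote zones the peptides and *Myh7* ran the other way. *Nppa* in TKO was 0.280 of the WT level at the border zone (0.274 to 0.285) and 0.249 at the remote zone (0.245 to 0.254). *Myh7* was at 0.317 at the border zone (0.312 to 0.322) and 0.518 at the remote zone (0.507 to 0.529). *Nppb* was at 0.605 (0.590 to 0.621) and 0.702 (0.681 to 0.723), and *Ankrd1* at 0.560 (0.533 to 0.589) and 0.828 (0.778 to 0.882), in the same order. *Acta1* was at 0.866 (0.848 to 0.885) at the border zone and 0.639 (0.621 to 0.657) at the remote zone. *Xirp2* was at 0.690 (0.676 to 0.704) and 0.964 (0.940 to 0.989), and *Mtpn* at 0.836 (0.785 to 0.891) and 0.931 (0.871 to 0.994), the smallest differences among the 8 at the remote zone. *Myh6* alone of the 8 was above WT in both, at 1.38 (1.38 to 1.39) and 1.36 (1.35 to 1.36). At least 2-fold lower at the border zone were 2 of 8 genes and 423 of all 12999 genes, where 4.48% differed that much either way. At the remote zone these were 1 of 8 and 307 of 12999, with 3.53% either way. These directions held under every scaling tried.

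**Figure D2:**
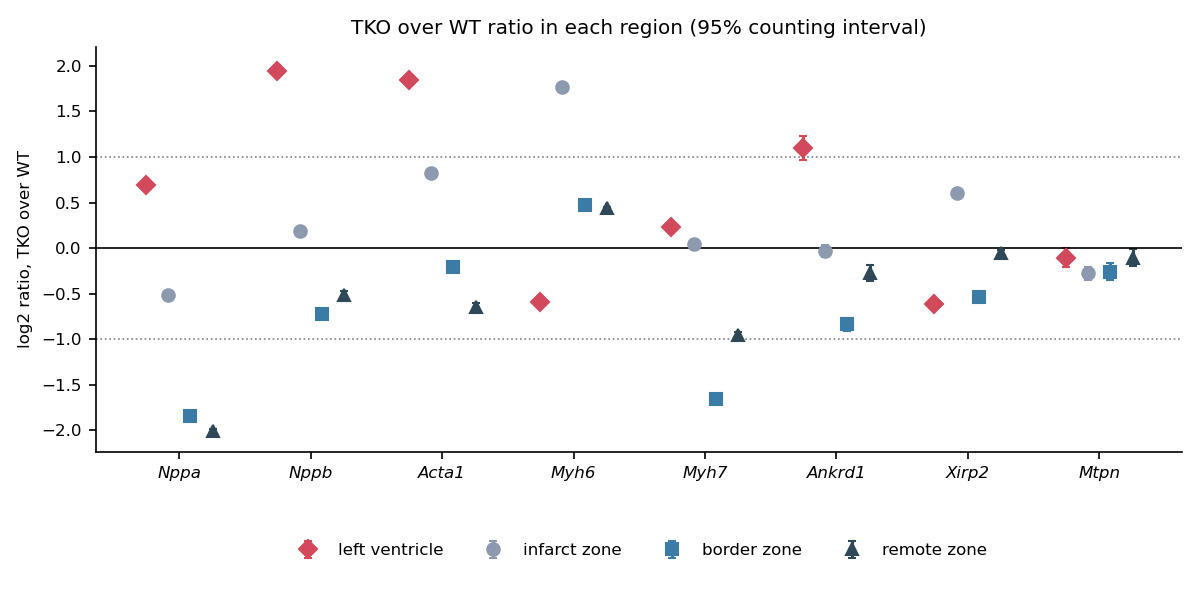
TKO/WT ratio of each gene in each region. The y axis is the log2 ratio of TMM-scaled counts, points are 1 library over 1 library, bars are 95% counting intervals, and dotted lines mark 2-fold. The left ventricle points of *Nppb* (3.85-fold), *Acta1* (3.599-fold), and *Ankrd1* (2.14-fold) lie above the upper line, and the border and remote zone points of *Nppa* lie below the lower line.

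In the infarct zone *Myh6* was 3.41-fold higher in TKO (3.37 to 3.44), ranking 48 of 12999 genes, and was the only member at least 2-fold different there, where 3.88% of all genes were. *Acta1* was at 1.77 (1.72 to 1.83), *Xirp2* at 1.52 (1.48 to 1.55), *Nppa* at 0.698 (0.692 to 0.705), and *Mtpn* at 0.825 (0.785 to 0.867). *Nppb* at 1.14 (1.12 to 1.17) and *Myh7* at 1.03 (1.02 to 1.04) turned below 1 when libraries were scaled by total counts alone, and *Ankrd1* at 0.978 (0.936 to 1.02) turned above 1 with TMM factors from all genes. Total-count scaling moved the median log2 ratio of all genes there by -0.29.

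Muscle transcripts were unequal between the infarct libraries. The geometric mean of 12 cardiomyocyte reference genes, *Actn2*, *Ttn*, and troponins among them, was 1.88-fold higher in TKO than in WT in the infarct zone, 1.17-fold at the border zone, 1.10-fold at the remote zone, and 1.06-fold in the left ventricle. Around this mean, the TKO/WT ratios of the 12 genes in the left ventricle ran from 0.759 to 1.30, with 7 above 1 and 5 below. Divided by this mean in the same library, 7 of the 8 genes were lower in TKO than in WT in each of the 3 zones, with *Myh6* the exception in all 3. The median of the 8 relative ratios was 0.579 in the infarct zone, 0.553 at the border zone, and 0.695 at the remote zone. Dividing by a reference that is higher in TKO lowers the ratio of any gene, most in the infarct zone. Before the division the median TKO/WT ratio of all genes was 1.01, 0.999, and 0.993 in the same order. How many of all genes fall below WT after it was not computed, so the count of 7 is not read as particular to the members. Relative to the reference, *Nppa* in TKO was 0.372 of WT in the infarct zone, 0.239 at the border zone, and 0.226 at the remote zone, *Myh7* was 0.549, 0.271, and 0.470, and *Nppb* was 0.610, 0.517, and 0.637. In the left ventricle the relative ratio was 3.64 for *Nppb*, 3.41 for *Acta1*, 2.03 for *Ankrd1*, 1.53 for *Nppa*, and 1.11 for *Myh7*. With *Actn2* alone as the reference, the count of members lower in TKO was again 7 in each zone, and it was 2 instead of 3 in the left ventricle. *Actn2* is itself among the 12 reference genes, so this is no independent check.

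Ratios within a library need no scaling. Their intervals cover counting error only, not how the quantification shared out reads common to *Myh6* and *Myh7*. *Myh7* made up 3.67% of *Myh6* plus *Myh7* counts in the WT left ventricle (exact binomial 95% interval 3.598 to 3.74) and 6.29% in the TKO left ventricle (6.17 to 6.41). In WT its share was 51.9% in the infarct zone (51.5 to 52.2), 28.4% at the border zone (28.3 to 28.6), and 13.7% at the remote zone (13.6 to 13.9). The corresponding *Myh7* shares in TKO were 24.6% (24.4 to 24.8), 8.34% (8.23 to 8.46), and 5.73% (5.63 to 5.83). In both genotypes the infarct zone share exceeded the border zone share, and only in TKO did the remote zone fall below the left ventricle. TKO minus WT was 2.62 percentage points in the left ventricle and -27.3, -20.1, and -7.997 points in the infarct, border, and remote zones. Over the 4 regions the mean difference was -13.2 points ± 13.2 (SD, n = 4 regions, lower in 3 of 4), which the exact two-sided sign-flip permutation test did not separate from 0 (p = 0.25, where the smallest p it allows is 0.13).

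**Figure D3:**
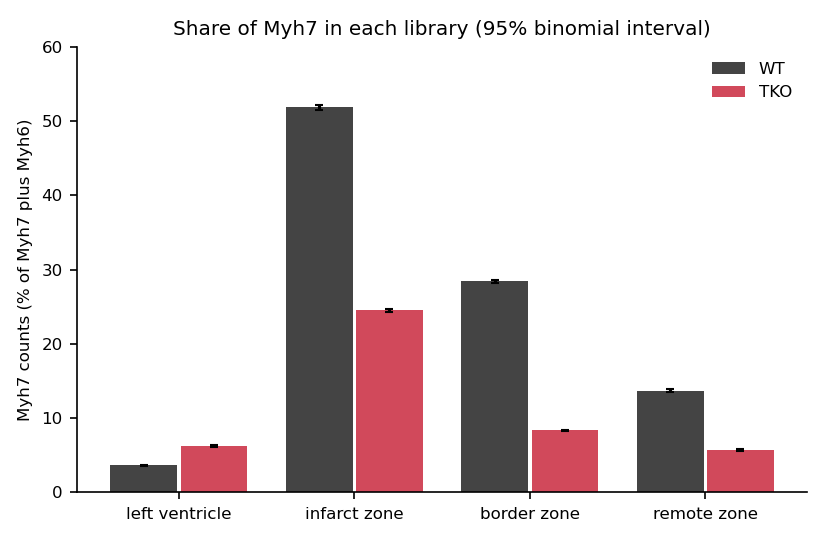
Share of *Myh7* in the summed *Myh7* and *Myh6* counts. Bars are single libraries (WT dark gray, TKO red), the y axis is in percent from 0, and error bars are exact binomial 95% intervals. The share is higher in TKO only in the left ventricle (6.29% against 3.67%) and reaches 51.9% in the WT infarct zone.

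The actin switch was read the same way, as *Acta1* over the sum of *Acta1* and cardiac α-actin (*Actc1*) counts. In WT it was 1.91% in the left ventricle, 6.72% in the infarct zone, 8.54% at the border zone, and 6.18% at the remote zone. In TKO the *Acta1* share was 5.10%, 6.49%, 6.52%, and 3.399%, so the regions spanned 3.399% to 6.52% against 1.91% to 8.54% in WT. The mean difference over the 4 regions was -0.462 points ± 2.66 (SD, n = 4 regions, exact two-sided sign-flip permutation p = 0.875). The ratio of *Nppa* to *Nppb* counts was 1.67 in the WT and 0.703 in the TKO left ventricle, and it was lower in TKO in the infarct (5.503 against 9.01), border (1.502 against 3.25), and remote zones (2.06 against 5.80) too.

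Set beside the LV library of their own genotype, the WT zones showed a large rise of the program. *Nppa* was 17.3-fold higher in the WT infarct zone (16.8 to 17.8), 9.69-fold at the border zone (9.40 to 9.98), and 11.4-fold at the remote zone (11.02 to 11.70). *Nppb* was 3.21-fold, 4.98-fold, and 3.27-fold higher in the same order, *Ankrd1* 3.78-fold, 5.14-fold, and 2.63-fold, and *Myh7* 3.398-fold, 6.12-fold, and 2.47-fold. *Acta1* was 1.28-fold, 4.53-fold, and 3.17-fold higher, and *Myh6* fell to 0.120, 0.587, and 0.591 of the left ventricle level. *Xirp2* was at 0.764, 1.86, and 1.02 and *Mtpn* at 1.55, 1.18, and 1.04, and at the remote zone the intervals of both included 1. At least 2-fold different were 5 of the 8 genes in the WT infarct zone (33.5% of all genes), 5 at the border zone (7.2%), and 5 at the remote zone (5.45%). The 5 of the border and remote zones were *Nppa*, *Nppb*, *Acta1*, *Myh7*, and *Ankrd1*, all of them higher.

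In all 3 zones *Nppa*, *Nppb*, *Myh6*, *Myh7*, and *Ankrd1* lay closer to their left ventricle level in TKO than in WT. *Acta1* did so at the border and remote zones only, and *Xirp2* lay further from it in all 3. In TKO, *Nppa* was 7.46-fold higher in the infarct zone (7.28 to 7.64), 1.67-fold at the border zone (1.63 to 1.72), and 1.75-fold at the remote zone (1.70 to 1.80). *Myh7* was 2.98-fold, 1.65-fold, and 1.09-fold higher. *Nppb* was below its left ventricle in all 3, at 0.953, 0.783, and 0.596, and *Acta1* was at 0.632, 1.09, and 0.563. *Ankrd1* was 1.73-fold higher in the infarct zone and 1.35-fold at the border zone, and was at 1.02 (0.949 to 1.09) at the remote zone, where no difference was detectable at this depth. *Myh6* was at 0.615 in the infarct zone but 1.22 and 1.20 in the border and remote zones. *Xirp2* was higher in all 3, at 1.76, 1.95, and 1.497, and *Mtpn* was at 1.38, 1.06, and 1.04, with intervals that included 1 at the border and remote zones. At least 2-fold different were 2 of 8 genes in the TKO infarct zone (23.8% of all genes), 0 at the border zone (5.99%), and 0 at the remote zone (4.56%). These ratios share their left ventricle library with the TKO/WT ratio given above, so the high TKO baseline of *Nppb*, *Acta1*, and *Ankrd1* enters both. With total counts alone the TKO infarct zone count became 4 and the border zone count 1, *Nppb* rose above its left ventricle in the TKO infarct zone, and *Xirp2*, at 0.764 in the WT infarct zone, turned higher than the left ventricle. That scaling moved the median log2 ratio of all genes by 0.83 in WT and 0.54 in TKO.

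**Figure D4:**
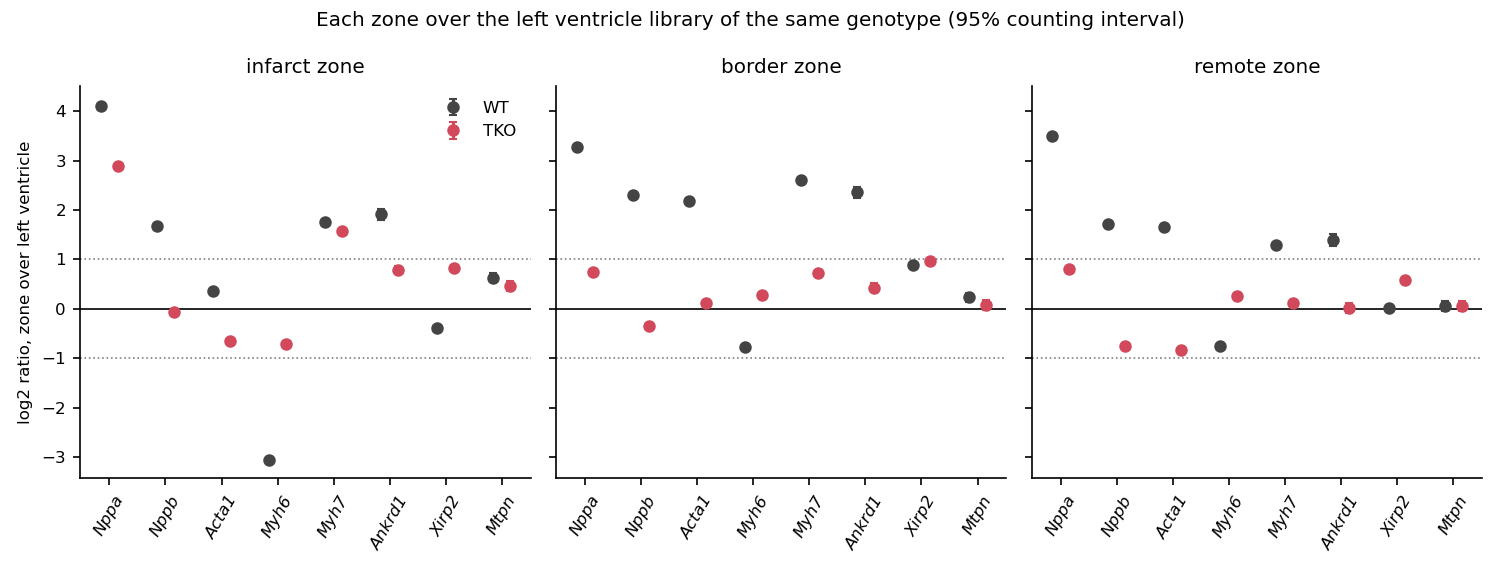
Each zone divided by the LV library of its genotype. The y axis is the log2 ratio of TMM-scaled counts for WT (dark gray) and TKO (red), bars are 95% counting intervals, and dotted lines mark 2-fold. In the border and remote zones *Nppa*, *Nppb*, *Acta1*, *Myh7*, and *Ankrd1* lie above the upper line in WT, and no gene lies beyond either line in TKO.

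Tests were possible only across regions or across genotypes, and they treat regions or genotypes as replicates, so they bear on these libraries' regions and not on mice. With genotype as a block, edgeR's quasi-likelihood test of infarct zone against left ventricle called 5 of the 8 genes at an adjusted p under 0.05, where 56.8% of all genes were called. *Nppa* was higher by 3.30 ± 0.68 (log2, SE, adjusted p = 0.0072), *Myh7* by 1.65 ± 0.46 (0.022), *Ankrd1* by 1.25 ± 0.41 (0.038), and *Mtpn* by 0.55 ± 0.10 (0.0047), and *Myh6* was lower at -1.85 ± 0.54 (0.026). *Nppb*, *Acta1*, and *Xirp2* did not pass, at 0.55, -0.30, and 0.25. The *Myh6* call was lost without the border zone (adjusted p = 0.053) or the remote zone libraries (0.057), and the *Ankrd1* call without the remote zone libraries (0.066).

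No member passed for the border or the remote zone by edgeR, with 4 and 1 at an unadjusted p under 0.05. Of all 12999 genes, 2333 and 1378 were under that unadjusted p. In the border zone edgeR called 0.715% of genes, and the members with the lowest unadjusted p were *Myh7* at 1.71 ± 0.47 (log2, adjusted p = 0.16), *Ankrd1* at 1.34 ± 0.41 (0.19), and *Xirp2* at 0.93 ± 0.30 (0.20). DESeq2 called 4.43% of genes there, including *Ankrd1* (adjusted p = 0.014) and *Xirp2* (0.035). For the remote zone edgeR called 0 of 12999 genes (0%), with 1378 at an unadjusted p under 0.05, and DESeq2 called 162 genes, none of them a member.

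No member passed the test of genotype across the 4 regions. The edgeR test with region as a block called 0.138% of genes, and DESeq2 called no member either. At an unadjusted p under 0.05 by edgeR were 1 member and 2109 of all 12999 genes. *Nppa* was at -0.94 ± 0.47 (log2, TKO over WT, adjusted p = 0.37), *Myh7* at -0.58 ± 0.33 (0.41), *Myh6* at 0.52 ± 0.38 (0.51), *Acta1* at 0.44 ± 0.41 (0.60), and *Mtpn* at -0.19 ± 0.07 (0.29, unadjusted p = 0.038). *Nppb* (0.19 ± 0.44), *Ankrd1* (-0.03 ± 0.29), and *Xirp2* (-0.15 ± 0.21) were nearer 0. Without the left ventricle pair *Nppa* became -1.46 (adjusted p = 0.088) and *Nppb* changed sign to -0.35.

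The departure of the left ventricle from the 3 zones was therefore tested directly, as the genotype difference there minus that in the zones. By edgeR no member passed at an adjusted p under 0.05, while 0.646% of all genes did. At an unadjusted p under 0.05 were 4 of the 8 members and 2179 of all 12999 genes. *Nppb* came nearest at 2.29 ± 0.40 (log2, adjusted p = 0.084, unadjusted p = 0.0015), a 4.90-fold larger TKO/WT ratio in the left ventricle than in the zones. *Ankrd1* was at 1.48 ± 0.32 (adjusted p = 0.12), *Nppa* at 2.16 ± 0.64 (0.20), *Acta1* at 1.86 ± 0.57 (0.21), and *Myh6* at -1.47 ± 0.68 (0.36). *Myh7* (1.09 ± 0.65), *Xirp2* (-0.61 ± 0.45), and *Mtpn* (0.11 ± 0.15) were weaker. The median of the 8 departures was 1.28 against -0.01 over all genes. The 8 genes were chosen with earlier results of these data known, so this gap and the tests above are a description and not independent support.

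That result depended on the tool and on the infarct libraries, while the direction of each named departure did not. DESeq2, which called 2.15% of genes, called *Nppb* (adjusted p = 4.1e-07) and *Ankrd1* (0.0047). With total counts alone edgeR called 2.12% of genes, and *Nppa* (0.030), *Nppb* (0.0024), *Acta1* (0.028), and *Ankrd1* (0.012) were among them. Without the infarct zone libraries edgeR called 9.25% of genes, including *Nppa* (2.59, adjusted p = 1.4e-05), *Nppb* (2.54, 1.4e-05), *Acta1* (2.25, 7.3e-05), *Ankrd1* (1.64, 0.0012), *Myh6* (-1.06, 0.0029), and *Myh7* (1.51, 0.0044), but that fit leaves 1 residual degree of freedom, so p-values this small are not read as support for a departure. Across the single-region omissions and other settings the adjusted p of *Nppb* lay between 4.1e-07 and 0.20. All of these fits, those of DESeq2 included, rest on 1 WT and 1 TKO left ventricle library, so none of their p-values is read as support for a departure.

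Markers of other cell types moved with some of these values. The summed level of 6 atrial muscle markers was 81.8 CPM in the WT and 81.0 CPM in the TKO left ventricle, 152 and 115 CPM at the border zones, 345 and 236 CPM in the infarct zones, and 781 and 328 CPM at the remote zones. *Dkk3* made up most of the infarct zone sums, at 275 CPM in WT and 206 CPM in TKO. Against its left ventricle, the TKO infarct zone had 4 of the 6 at least 2-fold lower and 2 at least 2-fold higher. In the WT infarct zone 1 was at least 2-fold lower and 5 at least 2-fold higher. All 6 were above 3 counts in every library. In the remote zone 5 of the 6 were at least 2-fold lower in TKO, with *Bmp10* at 2134 counts in WT and 305 in TKO and *Sln* at 2461 and 735. *Nppa* is also an atrial gene, and its remote and border zone difference was accompanied by these markers, whose part in it was not tested. In the left ventricle the atrial sums differed little, but *Kcnj3* made up most of them, at 55.8 CPM in WT and 48.4 CPM in TKO. There 5 of the 6 markers were above WT in TKO and 1 was below, with a median ratio of 1.17 and a highest of 1.64. *Bmp10* had 6 counts in each left ventricle library. The part of atrial muscle in the left ventricle *Nppa* and *Nppb* levels was not tested.

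Skeletal muscle markers, 8 genes that include *Myh4* and *Tnnt3*, summed to 173 CPM in the infarct zone of WT and 33.9 CPM at its border zone, against 1.35 to 3.25 CPM in the other 6 libraries. *Myh4* had 1486 counts in the infarct zone of WT, 193 at its border zone, and 1 to 6 elsewhere, and *Mylpf* was at 0 in the TKO left ventricle. *Acta1* is the main actin of skeletal muscle and *Xirp2* is expressed there, and the part of these cells in their WT infarct and border zone levels was not tested. In the left ventricle, where *Acta1* was 3.599-fold higher in TKO, the skeletal markers summed to 1.35 CPM in TKO and 3.25 CPM in WT. These sums rest on 35 and 89 counts, and 5 of the 8 markers in TKO and 2 in WT had 3 counts or fewer. The part of skeletal muscle in the left ventricle *Acta1* levels was not tested.

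Fibroblast and leukocyte markers were also lower in the TKO zones. All 6 fibroblast markers were below WT at the border zone (median ratio 0.568) and at the remote zone (0.690), with *Postn*, periostin, at 13860 counts in WT and 4487 in TKO at the border zone (0.336) and at 6592 and 2171 at the remote zone (0.333). Of 6 macrophage and leukocyte markers, 6 were lower in TKO at the border zone (median ratio 0.752) and 5 at the remote zone (0.719). In the infarct zone all 6 of each list were lower, with medians of 0.825 and 0.740. In the left ventricle the medians were 1.19 for fibroblast and 0.872 for macrophage and leukocyte markers. The summed fibroblast level was 754 and 859 CPM in the WT and TKO left ventricle, 6586 and 5510 CPM in the infarct zones, 2506 and 1339 CPM in the border zones, and 1411 and 914 CPM in the remote zones. The summed macrophage and leukocyte level ran from 234 to 1243 CPM over the 8 libraries, and no marker of either list was at 0. The part of these cells in the lower *Nppa*, *Nppb*, *Myh7*, and *Ankrd1* levels of the TKO border and remote zones was not tested.

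**Figure D5:**
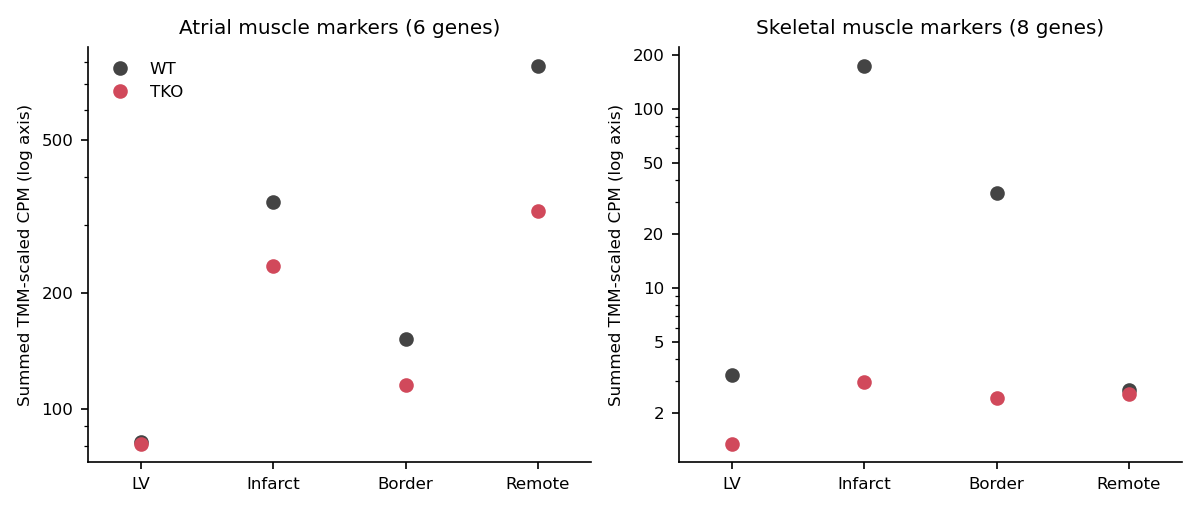
Summed TMM-scaled CPM of 6 atrial muscle markers (left) and 8 skeletal muscle markers (right) in each library, on log axes, with WT in dark gray and TKO in red. The atrial sum is highest in the WT remote zone (781 CPM) and nearly equal in the left ventricle libraries, where *Kcnj3* makes up most of it. The skeletal sum stands out in the WT infarct (173 CPM) and border zones (33.9 CPM).

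The wider pathway was read from lists of related genes. Over all 12999 genes, edgeR put 2109 at an unadjusted p under 0.05 for genotype and 2179 for the departure. Of 7 tested genes that process, receive, or clear natriuretic peptides, none passed for genotype across regions or for the LV departure by edgeR, with 2 and 1 at an unadjusted p under 0.05, and DESeq2 called 0 and 1, the latter *Corin* (adjusted p = 0.00043). *Corin*, the protease that activates pro-ANP, was the nearest to a departure at -1.47 ± 0.28 (log2, adjusted p = 0.10), with 7110 counts in the WT and 3414 in the TKO left ventricle (ratio 0.508) and ratios of 1.83, 1.30, and 1.19 in the infarct, border, and remote zones. *Furin*, a proprotein convertase that cleaves pro-BNP, was at -0.36 ± 0.16 (adjusted p = 0.33). For genotype across regions the list's lowest adjusted p were those of *Mme* (neprilysin, which degrades the peptides, 0.94 ± 0.31, adjusted p = 0.24) and *Npr3*, the clearance receptor (-0.25 ± 0.10, 0.31). Between infarct zone and left ventricle, 3 of the 7 rose and 3 fell, where 56.8% of all genes were called.

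Of 8 fetal or slow isoform genes, none passed for genotype or departure in edgeR, with 4 and 2 at an unadjusted p under 0.05, and DESeq2 called 0 and 1, the latter *Ckb* (adjusted p = 0.016). *Ckb*, brain-type creatine kinase, departed by 0.93 ± 0.14 (log2, adjusted p = 0.062), with a TKO/WT ratio of 1.68 in the left ventricle and 0.834 to 0.926 in the zones, and *Myl4*, the atrial and fetal light chain, by 2.03 ± 0.69 (0.24). *Tnnt1*, slow troponin T, was at 0.40 ± 0.10 across regions (adjusted p = 0.20) and *Tpm2*, β-tropomyosin, at -0.37 ± 0.12 (0.25). At the border zone 5 of the 8 were below WT in TKO and 3 above (median ratio 0.912). The lowest there was *Tnni1*, with 243 counts in WT and 2 in TKO. At the remote zone 5 were again below and 3 above (median 0.942), with *Tnni1* at 170 and 13 counts. In the left ventricle *Tnni1* had only 7 counts in WT and 15 in TKO. All 9 adult isoform and calcium-handling genes fell in the infarct zone against the left ventricle, where 56.8% of all genes were called in either direction, with a median of -1.77 (log2). In the infarct zone all 9 were above WT in TKO, with a median ratio of 1.98, and in the left ventricle 7 of 9 were, with a median of 1.13. By edgeR none of the 9 passed for genotype or departure (2 and 0 at an unadjusted p under 0.05), and DESeq2 called *Actc1* for genotype (adjusted p = 0.0496). The potassium channel genes *Kcnd2* (0.59 ± 0.23, adjusted p = 0.29) and *Kcnip2* (0.54 ± 0.22, 0.31) were the nearest to a difference across regions, and their departures were -0.63 (0.54) and -0.83 (0.37).

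Of 14 tested stretch and Z-disc response genes, 4 rose and 7 fell in the infarct zone against the left ventricle (56.8% of all genes were called), and none passed for genotype or departure by edgeR (3 and 1 at an unadjusted p under 0.05) or DESeq2. *Ccn2*, a matricellular target of YAP and TGF-β, departed by 1.05 ± 0.37 (log2, adjusted p = 0.25), and *Rcan1*, a calcineurin target, by 0.44 ± 0.24 (0.42). *Cryab*, the αB-crystallin chaperone, was at 0.31 ± 0.07 across regions (adjusted p = 0.19) and *Ccn1* at -0.25 ± 0.10 (0.29). *Ankrd2*, a relative of *Ankrd1*, had 15 counts in the WT and 0 in the TKO left ventricle and was too low to test. In the left ventricle the 14 had a median TKO/WT ratio of 1.05, with none at least 2-fold different, whereas the 8 members had a median of 1.38. That contrast is a description, since members and lists were chosen with earlier results of these data known.

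Of 16 regulators of the program, none passed for genotype or departure by edgeR (0 and 3 at an unadjusted p under 0.05) or DESeq2. The cardiac transcription factor genes *Gata4* (0.24 ± 0.11 across regions, log2, adjusted p = 0.34) and *Hand2* (0.17 ± 0.08, 0.36) came nearest for genotype, and *Gata4* was 1.46-fold higher in the TKO left ventricle. For the departure these were the mineralocorticoid receptor gene *Nr3c2* (-0.61 ± 0.16, adjusted p = 0.17) and *Nfatc4*, a calcineurin-responsive factor (0.78 ± 0.21, 0.17). In the infarct zone 1 of the 16 rose against the left ventricle and 8 fell, a share close to the 56.8% of all genes called there, and all 12 cardiomyocyte reference genes fell too, with a median of -1.41.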

How the data were processed

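Total RNA from 8 mouse heart libraries was sequenced. The authors trimmed reads with Trim Galore 0.6.5, quantified transcripts with kallisto 0.46 against an mm10 transcriptome, and collapsed transcripts into genes using tximport. The estimated counts that the authors deposited were whole numbers with no normalization, and depth was 27429240 to 33799249 per library. Kallisto shares reads between similar transcripts, which touches *Myh6* and *Myh7*. Groups came from the sample titles. The submitters' notes also name edgeR 3.34.1.

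Here, R 4.3.3 with edgeR 4.0.16 gave TMM factors over 12999 genes averaging 1 CPM or more. Ratios of 2 libraries have exact conditional binomial 95% intervals, which cover counting error only, and 2-fold calls used a prior count of 2. The 3 edgeR quasi-likelihood tests (genotype with region as a block, zone with genotype as a block, and the left ventricle departure) used Benjamini-Hochberg adjustment over all genes at a threshold of 0.05. They were tested on simulated data. DESeq2 1.42.0, other scalings and filters, and omission of each region were the alternatives. The TMM factors without the infarct libraries and the omission of regions for the *Myh7* share were added after seeing the data. Sequences and positions came from GENCODE M21 and RefSeq (GRCm38), and 16867 of 16994 identifiers were found. Genes named were the 8 members, from each list the 2 with the lowest adjusted p for genotype and for departure, list genes 2-fold different between genotypes in the left ventricle, the 3 genes nearest to each member in pattern, and *Tigar*. *Bmp10*, *Sln*, *Kcnj3*, *Myh4*, *Tnni1*, and *Col3a1* were also named after their values were seen. The members and lists were chosen with earlier results of these data known.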

Additional observations from a re-analysis of the deposited data

How the results depend on the processing

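The genotype test paired the libraries by region, and no pairing by replicate could be made, since each genotype and region had 1 library. Of 216 alternative TKO/WT ratios of the members, 189 stayed within their counting interval, and 17 of the 27 others came from total counts alone. None of the ratios past 2-fold changed direction. Members at least 2-fold different over the left ventricle in TKO became 4 in the infarct zone and 1 at the border zone with total counts alone. Genes called for genotype across regions were 18, but 56 with total counts alone, 7 with at least 10 counts in every library, 342 with DESeq2, and 3 to 81 with a region omitted (81 without the left ventricle, 3 without the remote zone). For the border zone the 93 calls became 200 with total counts, 576 with DESeq2, and 1 to 6 with a zone omitted (1 without the remote, 6 without the infarct zone). For the remote zone the 0 calls became 18, 162, and 0 to 1, and 1 without a filter or 3 with at least 10 counts. For the left ventricle departure the 84 calls became 275 with total counts, 140 with at least 10 counts, 280 with DESeq2, and 11 to 1203 with a zone omitted (11 without the border, 1203 without the infarct zone). With total counts the infarct zone difference of *Acta1* turned to 0.35 (log2). With a region omitted, the genotype differences (log2) ran from -0.35 to 0.52 for *Nppb*, -0.012 to 0.82 for *Acta1*, -0.38 to 0.25 for *Ankrd1*, and -0.41 to 0.0051 for *Xirp2*, none of them called. The cause was not tested. The mean *Myh7* share difference lay between -18.5 and -8.49 points with a region omitted. The lowest member count was 755 (*Ankrd1* in the WT left ventricle), so the single library per group, not depth, limits these values.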

Other observations

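The genes whose log2 CPM followed each member most closely over the 8 libraries were ranked by Pearson's r among 8371 genes averaging 10 CPM or more, as a description without a test, since the points share libraries and the infarct zones stand apart. *Nppa* was followed by *Topbp1* (r = 0.98), *Ptms* (0.98), and *Arf6* (0.97), and *Nppb* by the amino acid transporter gene *Slc38a2* (0.94), *Dpp3* (0.93), and *Adam19* (0.92). *Acta1* was followed by *Nars* (0.96), *Nek1* (0.96), and *Pdgfb* (0.96), and *Ankrd1* by *Septin2* (0.95), *Zhx1* (0.95), and *Rps6ka3* (0.94). *Myh6* was followed by *Vwa8* (0.99), the calcium release channel gene *Ryr2* (0.99), and *Cast* (0.99), whereas *Myh7* was followed by *Thbs4* (0.93), *Exoc5* (0.93), and *Nuak1* (0.93). *Xirp2* was followed by *Ttll7* (0.96), *Tnks* (0.90), and *Stx3* (0.88). *Mtpn* was followed by *Sirpa* (0.996), *Sgpl1* (0.99), and the leukocyte gene *Coro1a* (0.99). Among the members themselves r was 0.91 between *Myh7* and *Ankrd1*, 0.89 between *Nppb* and *Ankrd1*, and -0.92 between *Myh6* and *Mtpn*.

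The marker lists gave 1 call for genotype across regions in edgeR, the leukocyte gene *Ptprc* (-0.67 ± 0.07, log2, adjusted p = 0.043), where 0.138% of all genes were called, and none for the left ventricle departure. DESeq2, which called 342 of all 12999 genes for genotype, called 7 markers lower in TKO across regions. They were *Ptprc* (adjusted p = 2.7e-06), *Actn3* (0.0051), *Csf1r* (0.014), *Lyz2* (0.015), *Postn* (0.023), *Tnnc2* (0.036), and *Col1a1* (0.049). It also called 3 markers for the departure (*Lum*, *Dkk3*, and *Col3a1*), where it called 2.15% of all genes. All 6 fibroblast, all 6 macrophage and leukocyte, all 5 red blood cell, and 4 of 5 smooth muscle markers rose in the infarct zone against the left ventricle, as did 6 of 8 skeletal muscle markers, whereas 1 of 5 endothelial markers rose and 1 fell and 1 of 6 atrial markers rose and 1 fell. These are edgeR calls, in a comparison where 56.8% of all genes were called. Between the left ventricle libraries *Cnn1* was 2-fold or more lower in TKO (76 counts in WT and 26 in TKO), and so were the skeletal muscle genes *Mylpf* (11 and 0), *Actn3* (12 and 3), and *Tnnc2* (12 and 2), all near the floor of 3 counts. For the 2 genes of each marker or reference list with the lowest adjusted p across regions, other than *Ptprc*, edgeR gave 0.17 for *Csf1r* and *Tnnc2*, 0.19 for *Actn3*, 0.20 for *Bmp10* and *Alas2*, 0.23 for *Col1a1*, 0.24 for *Postn*, 0.27 for *Smtn*, 0.28 for *Myl4*, 0.31 for *Kdr* and *Tagln*, 0.33 for *Actc1* and *Tnni3*, 0.40 for *Hba-a1*, and 0.67 for *Cdh5*. For the departure the 2 of each list had 0.100 for *Lum*, 0.19 for *Dkk3* and *Cd68*, 0.20 for *Pdgfra*, 0.24 for *Ryr2* and *Myl4*, 0.41 for *Ttn*, 0.42 for *Lyz2*, 0.47 for *Myh1* and *Cnn1*, 0.52 for *Smtn*, 0.57 for *Tnnt3*, 0.63 for *Hbb-bt*, 0.66 for *Hbb-bs*, 0.81 for *Vwf*, and 0.88 for *Pecam1*.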
